A study of Saccharomyces cerevisiae with 21 samples.

Results

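The genes described here encode the nuclear part of the mitochondrial respiratory chain and ATP synthase of Saccharomyces cerevisiae, together with dehydrogenases that feed electrons into the chain and small proteins that inhibit ATP synthase. The 42 members were chosen by gene symbol. Each was found through the probe sets annotated with that single symbol, and where a gene had several, the brightest over all 21 arrays stood for it. All 42 were found, among 5656 distinct genes and 9275 probe sets tested. Electron transport takes in 6 dehydrogenases (NDI1, NDE1, NDE2, GUT2, CYB2 and DLD1) and 9 subunits of complex III (COR1, QCR2, QCR6, QCR7, QCR8, QCR9, QCR10, RIP1 and CYT1). It also takes in 2 isoforms of cytochrome c (CYC1 and CYC7) and 9 subunits of complex IV (COX4, COX5A, COX5B, COX6, COX7, COX8, COX9, COX12 and COX13). From ATP synthase they comprise 5 subunits of the catalytic F1 head (ATP1, ATP2, ATP3, ATP15 and ATP16), 9 of the membrane part and peripheral stalk (ATP4, ATP5, ATP7, ATP14, ATP17, ATP18, ATP19, ATP20 and TIM11) and 2 inhibitors (INH1 and STF1).

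Yeast has no proton-pumping complex I, and NADH is oxidised instead by single-chain dehydrogenases, of which Ndi1 faces the matrix and Nde1 and Nde2 face the intermembrane space. Electrons reach ubiquinone from these enzymes and from the glycerol 3-phosphate dehydrogenase Gut2, pass through complex III to cytochrome c, which also takes electrons from the lactate dehydrogenases Cyb2 and Dld1, and end on oxygen at complex IV. ATP synthase uses the resulting proton gradient. On glucose many of these genes are repressed, and the Hap complex with its activating subunit Hap4 raises their transcription when cells turn to respiration.

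Total RNA came from BY4743, a diploid laboratory strain of the S288C background that carries deletions of HIS3, LEU2 and URA3 and, like other S288C strains, a transposon insertion in HAP1. The strain is shared by all 7 groups of 3 arrays each. Cells grown in YPD, a rich glucose medium, were moved to YPD diluted 20-fold, and the control was taken at that point. The other groups were sampled at 18 h of drying (50% dry by their titles), dry (42 h in the drying system, then 72 h kept at 20% relative humidity), and at 15, 45, 90 and 360 min after the dry cells were given the diluted medium again, when several plates were pooled. No group held undried cells kept as long in diluted medium, so water loss, medium and time cannot be told apart. The labels do not say whether the replicates came from separate cultures, so p-values of the linear model described below reflect only how far these arrays of a time point differ, possibly for technical reasons.

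Signals are the linear probe set values of the deposited table, and each change is a difference of mean log2 signals ± SE from a linear model over all 21 arrays (limma), called at an adjusted p under 0.05 over all 9275 probe sets. Group means of the signal are given ± SD over 3 arrays. Between 78.6% and 81.4% of probe sets per array lay above the background signal of 29.6, and arrays of one time point correlated across probe sets at 0.957 to 0.986 on the log2 scale. Of the 882 member values only 1, for CYC7 at 360 min, was at or below background. The probe sets of ACT1 at both ends of the transcript gave a log2 ratio of 3' over 5' signal of -0.31 ± 0.14 in the control (SD, n = 3), 0.61 ± 0.09 at 18 h, 1.05 ± 0.10 in the dry state and 2.32 ± 0.04 at 360 min. SRB4 went from 0.82 ± 0.32 in the control to 1.79 ± 0.15 at 18 h, 1.72 ± 0.17 in the dry state and 2.13 ± 0.21 at 360 min. SPT15 gave 1.66 ± 0.03, 1.80 ± 0.23, 1.27 ± 0.05 and 2.78 ± 0.24 in the same groups. Each of these RNA quality ratios was higher at 360 min than in the control, but those of SRB4 and SPT15 did not rise from 18 h to dry. Their part in the results was not tested. Each array was scaled to a common trimmed mean, so every direction below is relative to the rest of its array, and fewer cells with intact RNA cannot be told apart from less RNA per cell. Scaling on 9 spike-in probe sets, which are added to the hybridization mix, shifted every log2 change by -0.29 at 18 h against control, by -0.73 at 15 min against dry, by -0.96 at 360 against 90 min, by -2.01 at 360 min against dry and by -2.32 at 360 min against control.

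Signals differed over the 7 time points for 42 of 42 members (moderated F test), against 84.2% of all probe sets. A rise at 18 h of drying and a later decline were both common, though not always in the same member. The highest group mean fell at 18 h for 21 members, in the dry state for 7 and in the control for 5, and the lowest at 360 min of rehydration for 24 and in the control for 15. These counts were not made for all probe sets, so they describe the members only. They also hold for the deposited scale, since a shift of a whole time point can move them. CYC1, which has its maximum in the control, and NDE2, which has its maximum at 360 min, mark the ends of the range in each comparison of a later group with the control.

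**Figure D1:**
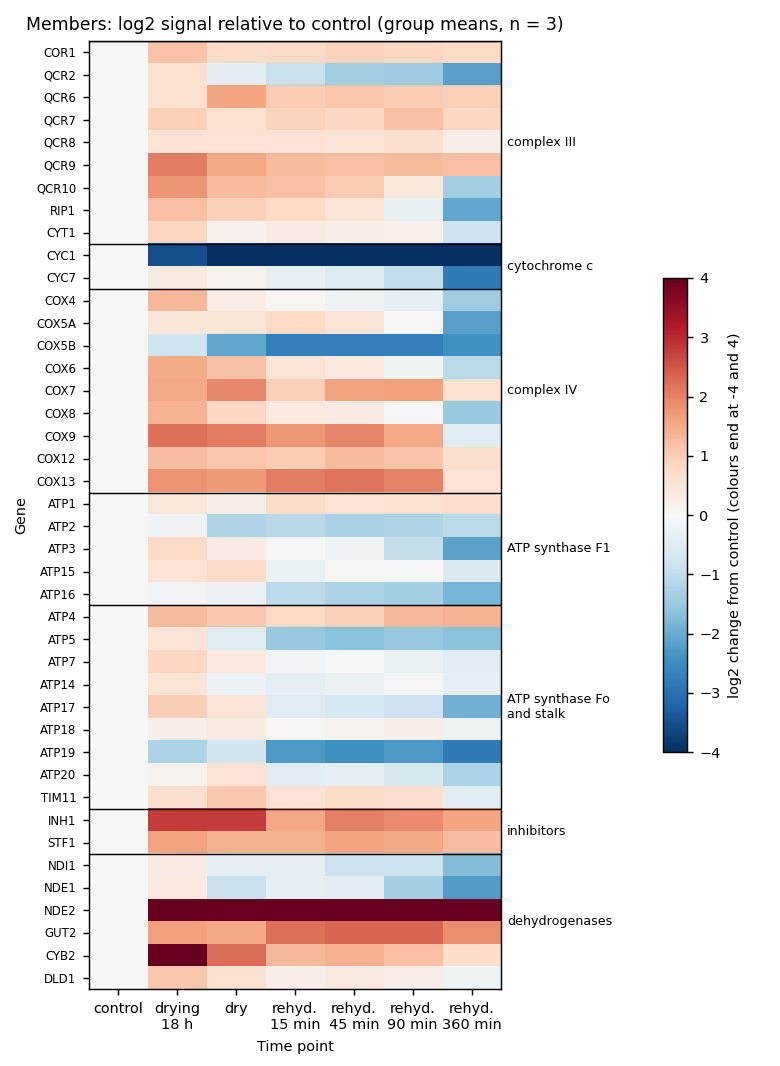
Colour gives the difference in mean log2 signal from the control (3 arrays per group) for each of the 42 members (rows, by complex) at the 7 time points (columns, evenly spaced), with colours ending at -4 and 4. Red covers most rows at 18 h of drying and blue spreads from left to right through rehydration, while NDE2 stays dark red and CYC1 dark blue; under spike-in scaling the 360 min column would be lower by 2.32 in each row, which turns 13 of its 14 called rises.

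The contrast between the 18 h arrays and the control covers the first part of drying. All subunits of complexes III and IV but COX5B rose, the external NADH dehydrogenase NDE2 and the lactate dehydrogenase CYB2 rose most, and the major cytochrome c isoform CYC1 fell most. Of the 42 members 32 rose and 3 fell (CYC1, COX5B and ATP19), with a median log2 change of 0.83. Among all probe sets 36.2% rose and 27.3% fell, with a median of 0.11, so the share of rises was higher among the members. Higher calls made up 57.0% of all calls, and 44.3% under spike-in scaling, which left 22 rises and 4 falls among the members. The rises took in 9 of 9 complex III subunits, 8 of 9 of complex IV, 5 of 6 dehydrogenases and 2 of 2 inhibitors, but 3 of 5 F1 subunits and 5 of 9 of the membrane part and stalk of ATP synthase. CYC7, ATP2, ATP16, ATP14, ATP18, ATP20 and NDI1 did not pass the test, with changes between -0.15 and 0.55. Arrays were scanned on 4 days, and with scan day as a block 33 members rose and 3 fell. Within the day that held the controls and a single array of 18 h, taken to vary like the others, 33 rose and 2 fell.

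The contrast between dry and 18 h covers the end of drying and the hold at low humidity. Decline was the main direction: 19 of 42 members fell and 3 rose (QCR6, TIM11 and ATP20), with a median of -0.27. Among all probe sets 22.1% rose and 17.0% fell, and 56.5% of the called ones were higher, a split that median centring turned to 41.5%. The largest falls were those of CYB2 and NDE1. Falls came from each of complex III (4 of 9), complex IV (4 of 9), F1 (2 of 5), the membrane part and stalk (4 of 9) and the dehydrogenases (4 of 6), whereas neither inhibitor passed the test. Spike-in scaling left 10 falls and 1 rise. Within the scan day that held the dry arrays and the other 18 h arrays, 17 members fell and 2 rose. Across the 42 members the change had a Spearman correlation of -0.53 with gene length, against -0.11 across 5656 genes, which are not independent replicates; at the next step, 15 min against dry, it was 0.40 against 0.08.

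The comparison of 15 min of rehydration with the dry state covers the first minutes after wetting. ATP synthase lost signal in both parts: 7 of 9 subunits of its membrane part and stalk fell, as did 3 of 5 F1 subunits and the inhibitor INH1, together with 4 of 9 complex IV and 3 of 9 complex III subunits. In all 20 members fell and 5 rose (COX5A, COX13, ATP1, NDE1 and GUT2), with a median of -0.29, against 27.5% of probe sets that fell, 12.8% that rose and a median of -0.18. The weakest of these calls, QCR9, stood at the threshold (adjusted p = 0.05 after rounding). Directions here depend on scaling. The 5 rises turned negative under spike-in scaling, with 35 falls and 0 rises. That scaling put the median of all probe sets at -0.91, beside -1.01 for the members, so the 35 falls are not particular to them. Median centring turned the falls of QCR9, ATP3, ATP4 and DLD1 and gave 10 rises and 8 falls. The share of called probe sets that were higher was 31.7%, and it was 51.2% after quantile normalization, 70.3% after median centring and 1.3% under spike-in scaling. All arrays of both groups shared a scan day, and within it 16 members fell and 6 rose, while a fit of these 2 groups alone called 15.

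Between 15 and 45 min no member was called by limma, and 0.270% of all probe sets rose and 0.151% fell (64.1% of calls higher, 80.0% after median centring). An unadjusted p under 0.05 in limma was reached by 9 of 42 members and by 1278 of all 9275 probe sets. Between 45 and 90 min 6 members fell (RIP1, QCR10, COX5A, COX6, ATP3 and NDE1) and 1 rose (ATP4), against 3.31% and 2.17% of all probe sets (39.6% of calls higher, 1.8% under spike-in scaling). None of these 7 calls was kept when only the arrays of 45 and 90 min were fitted, and scan day cannot be told apart from group here; with scan day as a random block 5 fell and 0 rose.

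From 90 to 360 min the decline was broad, and complex IV had a median change of -1.04. Of the 42 members 25 fell and 0 rose, with a median of -0.50, against 22.0% of all probe sets that fell, 15.4% that rose and a median of -0.02. Falls were called for 8 of 9 complex IV subunits, with COX5B as the exception, and for 5 of 9 of complex III, 3 of 5 of F1, 4 of 9 of the membrane part and stalk and 4 of 6 dehydrogenases. COX5A and COX9 fell most. Higher calls were 41.2% of all calls, 53.1% after median centring and 1.1% under spike-in scaling. Spike-in scaling called falls for 42 of 42 members, but it also put the median of all probe sets at -0.98, beside -1.46 for the members. The share of all probe sets that fell under it is not given here. Within the scan day that held all arrays of 360 min and 2 of 90 min, 16 members fell and 0 rose.

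Set against the dry state, the arrays at 360 min showed 31 falls and 4 rises (ATP1, ATP4, NDE2 and GUT2), with a median of -1.19, where 40.7% of all probe sets fell, 21.2% rose and the median was -0.29. Complex IV had 8 falls and 0 rises of 9 with a median of -1.71, and complex III 7 falls and 0 rises with a median of -0.62. All 4 rises turned to called falls under spike-in scaling, and those of NDE2 and GUT2 also turned after quantile normalization. Median centring turned the falls of QCR8, QCR9, COX12 and ATP18, none of them then called, and gave 8 rises and 26 falls. The rise of GUT2, whose arrays overlapped, lost its call in 7 of 18 alternatives, among them the omission of dry replicate 3 or of 360 min replicate 1 or 2. Over all called probe sets the share that was higher was 34.3%, and it was 46.4% after quantile normalization, 60.0% after median centring and 0.8% under spike-in scaling. No scan day held both groups, so day and group cannot be told apart in a fixed block; with day as a random block 30 fell and 2 rose.

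**Figure D2:**
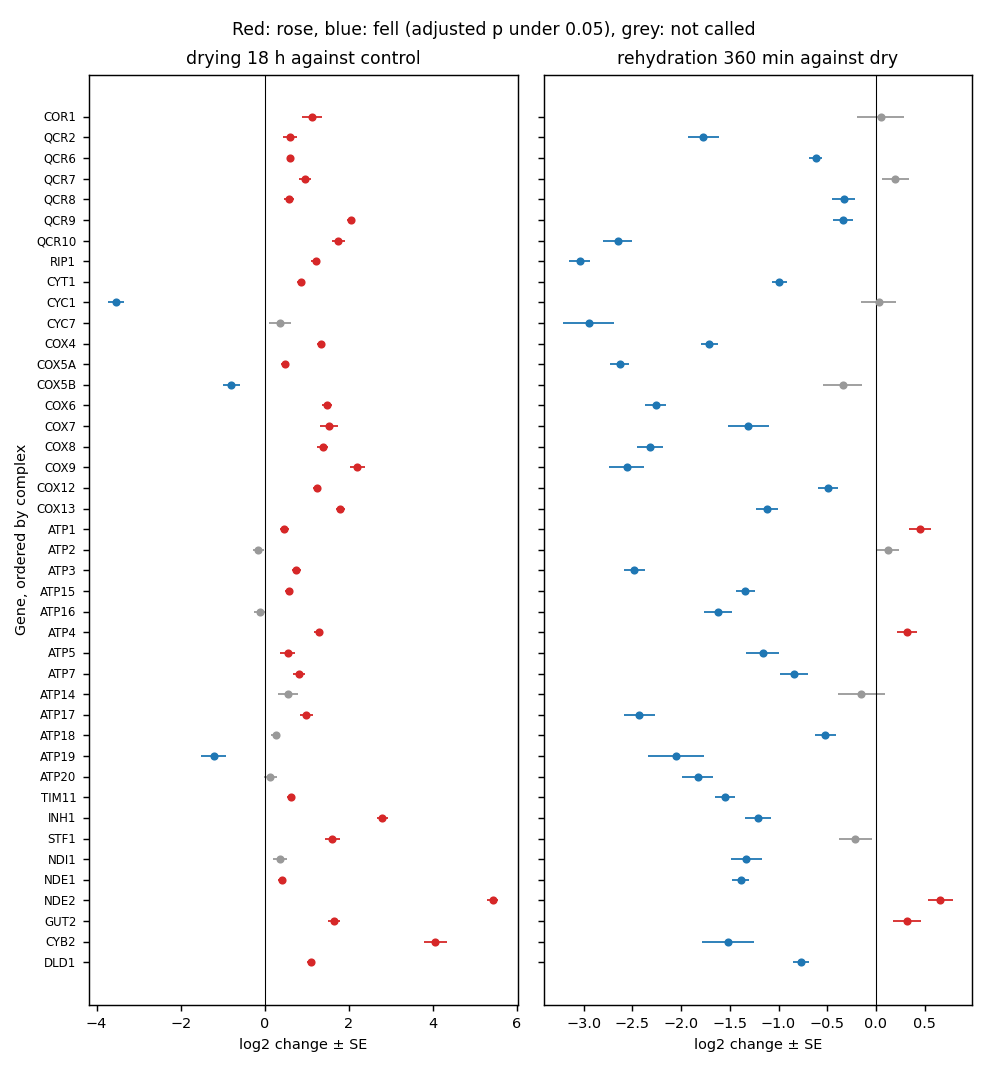
Points are log2 changes ± SE for the 42 members (rows, by complex), on the left for 18 h of drying against control and on the right for 360 min of rehydration against dry, with separate horizontal scales. On the left 32 red points lie above 0 and CYC1, COX5B and ATP19 below it; on the right 31 blue points lie below 0 and the 4 red ones (ATP1, ATP4, NDE2 and GUT2) turn negative under spike-in scaling.

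Against the control, 360 min of rehydration left the module mixed: 24 members were lower and 14 higher, with a median of -0.53, and 36.4% of all probe sets were lower, 33.7% higher, with a median of -0.01. Both cytochrome c isoforms, 6 of 9 complex IV subunits, 4 of 5 F1 subunits and 6 of 9 of the membrane part and stalk were lower, complex III was split into 4 higher and 4 lower, and both inhibitors were higher. Of the 14 rises NDE2 alone stayed a rise under spike-in scaling (5.91 ± 0.13 as scaled, 3.59 on spike-ins), and the other 13 turned to called falls. Of all called probe sets 48.1% were higher, and 5.2% under spike-in scaling. Day and group cannot be told apart here either, and with scan day as a random block 23 fell and 12 rose. This comparison and that of 18 h share the control arrays, and those of 15 and 360 min with the dry state share the dry arrays.

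Among the dehydrogenases, NDE2 had the largest change of any member. Its signals were 179, 175 and 160.1 in the control, 7072, 7577 and 7377 at 18 h and 7544, 6712 and 5457 in the dry state. After rehydration they were 9557, 8678 and 6669 at 15 min, 10006, 9826 and 9524 at 45 min, 9104, 7820.1 and 9665 at 90 min and 10498, 10511 and 9805 at 360 min. The control arrays lay far below all the others, and the later groups overlapped in part. The change at 18 h was 5.42 ± 0.13 (adjusted p = 4.67e-15), and by 360 min it was 5.91 ± 0.13 against control. The partner enzyme NDE1 took another course. Its signals were 4997, 5043 and 4990.1 in the control, 6199, 6931 and 6735 at 18 h and 2646, 2906 and 2566 in the dry state. They were 3664, 3876 and 4314 at 15 min, 3586, 3819.5 and 3693 at 45 min, 2139, 1777 and 1911 at 90 min and 1103, 973 and 1013 at 360 min. NDE1 was highest at 18 h, partly recovered at 15 min (a rise of 0.54 ± 0.09 over dry that spike-in scaling made -0.18), and at 360 min all its arrays lay below those of every other group (-2.28 ± 0.09 against control, adjusted p = 9.42e-13).

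CYB2, which oxidises L-lactate and passes the electrons to cytochrome c, was highest at 18 h. Its signals were 253, 239 and 254 in the control, 4309, 4016 and 4111 at 18 h and 1151, 1229 and 1114 in the dry state, with no overlap between these groups. It rose by 4.06 ± 0.27 at 18 h and changed by -1.83 ± 0.27 in the dry state, and its arrays at 15 min spread widely (1033, 364 and 615). CYB2 stayed above control afterwards, by 1.45 at 45 min, 1.19 at 90 min and 0.7 at 360 min (log2). The call at 360 min was lost in 5 of 18 alternatives, and its direction turned under spike-in scaling. DLD1, the D-lactate enzyme, went from 2033 ± 92.3 in the control (SD, n = 3) to 4326 ± 116 at 18 h and 1803 ± 152 at 360 min, and the last did not pass the test against control. GUT2, which takes electrons from glycerol 3-phosphate, was at 1603, 1562 and 1445 in the control, 4850, 4989 and 3719 in the dry state, 7080.4, 6139 and 8269.6 at 15 min and 6629, 5363 and 4969 at 360 min. GUT2 thus stayed above all control arrays throughout, with 0.67 ± 0.14 at 15 min against dry and 1.87 ± 0.14 at 360 min against control, both of which spike-in scaling turned (-0.06 and -0.45). NDI1, the matrix-facing enzyme, did not pass the test at 18 h (0.36 ± 0.16, adjusted p = 0.0566) and declined from 2106 ± 284 at 18 h to 497 ± 69.5 at 360 min, a change of -1.73 ± 0.16 against control.

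Complex III carries electrons from ubiquinol to cytochrome c through cytochrome b, which is encoded in mitochondrial DNA, cytochrome c1 (CYT1) and the Rieske iron-sulfur protein (RIP1). At 18 h its 9 members rose by 0.58 (QCR8) to 2.05 (QCR9). RIP1 gave 1857, 1889.8 and 1849.5 in the control, 4033, 4836 and 4093 at 18 h and 3650.4, 3721 and 3491 in the dry state. It gave 2679, 2708 and 2743 at 45 min, 1661, 1322 and 1579.7 at 90 min and 459, 426 and 439 at 360 min. These groups were separate from one another in the last steps, with changes of -0.84 ± 0.11 from 45 to 90 min, -1.78 ± 0.11 from 90 to 360 min and -3.04 ± 0.11 from dry to 360 min (adjusted p = 7.41e-12). A further RIP1 probe set, placed on the chip as a control, gave 1.17 at 18 h against control and -3.34 at 360 min against dry.

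The other complex III members took several courses. QCR2, a core protein, fell from 2304 ± 86.5 at 18 h to 1145 ± 3.21 in the dry state and 336 ± 25.1 at 360 min, and QCR10, a small subunit, from 2212 ± 248 at 18 h to 255 ± 27.2 at 360 min. QCR9, a small subunit, declined early and then held, with 3065 ± 188 at 18 h, 1802 ± 101 at 15 min and 1715 ± 168 at 360 min. QCR6, the acidic hinge protein, gave 850.1, 824 and 786 at 18 h, 1588, 1563 and 1621 in the dry state and 1028, 1088 and 1108 at 15 min, so its arrays peaked in the dry state without overlap. It was the largest rise of any member from 18 h to dry (0.96 ± 0.07, adjusted p = 4.69e-08). The core protein COR1 and the ubiquinone-binding subunit QCR7 stayed above control at 360 min (0.79 ± 0.24 and 0.83 ± 0.14), which spike-in scaling turned for both, while CYT1 was lower (-0.83 ± 0.08). QCR8 did not pass the test at 360 min against control (0.24 ± 0.12), and its second, dim probe set differed from the first in sign (-0.59 there, and -0.17 against 0.58 at 18 h). From the lowest to the highest member, the log2 change from control spanned 1.46 at 18 h (QCR8 to QCR9), 2.19 at 15 min and 3.39 at 360 min (QCR2 to QCR9), a span that scaling by a common factor does not alter.

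Cytochrome c, the mobile carrier between complexes III and IV, has a major isoform, CYC1, and a minor one, CYC7, which is known for expression under stress and low oxygen. CYC1 gave 1115, 1195 and 1126 in the control, 94.9, 96.3 and 103 at 18 h and 68.6, 53.4 and 63.5 in the dry state. It then gave 74.9, 62.5 and 45.5 at 15 min, 57.2, 68.3 and 50.4 at 45 min, 39.4, 58.8 and 61.1 at 90 min and 66.5, 62.6 and 59.9 at 360 min. The control arrays stood alone, and all rehydrated arrays overlapped at low signals that were still above background. The change was -3.54 ± 0.18 at 18 h (adjusted p = 4.31e-11) and -4.18 ± 0.18 at 360 min against control. CYC7 gave 261, 254 and 268 in the control, 394, 305 and 315 at 18 h and 297, 228 and 355 in the dry state. It gave 194, 213 and 215 at 15 min, 159.9, 178 and 199 at 45 min, 109, 186 and 111 at 90 min and 42.6, 23.2 and 53.2 at 360 min. CYC7 did not pass the test at 18 h (0.36 ± 0.26, adjusted p = 0.239) and at 360 min lay below all other groups, with -2.95 ± 0.26 against dry and -2.80 ± 0.26 against control.

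Complex IV, cytochrome c oxidase, has a catalytic core encoded in mitochondrial DNA and a ring of nuclear subunits. Subunit V comes as COX5A, the form made with ample oxygen, or COX5B, the form made at low oxygen. COX5A gave 1504, 1872 and 1559.9 in the control, 2225, 2446 and 2194 at 18 h and 2166, 2309.7 and 2319 in the dry state. It gave 2547, 3164 and 2939.9 at 15 min, 2492, 2522 and 2252 at 45 min, 1481, 1631 and 1528 at 90 min and 359.9, 335 and 408 at 360 min. COX5A was highest after wetting and dropped below all other groups at 360 min, with a change of -2.08 ± 0.10 from 90 min (adjusted p = 2.36e-09). COX5B gave 854, 560 and 499.9 in the control, 393, 307 and 379 at 18 h and 119.8, 145 and 182 in the dry state. It gave 96.9, 84.8 and 95.8 at 15 min, 104, 88.3 and 86.0 at 45 min, 103, 85.1 and 90.5 at 90 min and 98.0, 110.1 and 144 at 360 min. COX5B thus fell through drying (-0.80 ± 0.20 at 18 h and -1.29 ± 0.20 from there to dry) and once more at 15 min (-0.67 ± 0.20), and it was the single complex IV member that fell at 18 h.

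Apart from COX5A (0.48 ± 0.10), the complex IV members that rose at 18 h did so by 1.24 (COX12) to 2.20 (COX9). COX9, a small membrane subunit, gave 600.3, 643 and 637 in the control, 2879, 2882 and 2896 at 18 h, 1600, 2245 and 1540 at 90 min and 376, 447 and 541 at 360 min. Its last group lay below the control, with -1.97 ± 0.18 from 90 min and -0.48 ± 0.18 against control. The latter call was lost in 7 of 18 alternatives, among them quantile normalization, median centring and the omission of control replicate 2 or 3 or of 360 min replicate 1 or 2. COX4, which binds zinc, went from 1208 ± 32.8 in the control to 3036 ± 92.1 at 18 h, then 1476 ± 117 in the dry state and 452 ± 41.8 at 360 min. COX6 and COX8 followed a like decline, from 3014 ± 229.9 and 3896 ± 143 at 18 h to 511 ± 39.4 and 536 ± 28.4 at 360 min. COX12 and COX13 are peripheral subunits. At 15 min against dry COX12 did not pass the test (-0.12 ± 0.10) and COX13 rose (0.34 ± 0.11), which spike-in scaling turned. COX13 went from 937 ± 74.2 in the control to 4209.7 ± 225 at 45 min and 1403 ± 126 at 360 min. COX12 went from 1986 ± 57.3 in the control to 4717 ± 109 at 45 min and 3076 ± 185 at 360 min. COX7 went from 900.3 ± 57.6 in the control to 3497 ± 842 in the dry state and fell to 1813 ± 539 at 15 min (-0.97 ± 0.21, adjusted p = 0.00149). It was then at 2749 ± 288 at 45 min, which did not pass the test against 15 min, and 1384 ± 149 at 360 min. All 3 remained higher than in the control at 360 min (0.58 to 0.63, log2), a direction that spike-in scaling turned. The span of changes from control within complex IV was 4.16 in the dry state (COX5B to COX9), 4.92 at 45 min (COX5B to COX13) and 3.05 at 360 min (COX5B to COX12).

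The F1 head holds the catalytic sites, formed by the alpha (ATP1) and beta (ATP2) subunits around the gamma shaft (ATP3), with delta (ATP16) and epsilon (ATP15) below. ATP1 gave 2096, 2234 and 2196 in the control, 3029.5, 2855 and 3118 at 18 h, 2343, 2632 and 2626 in the dry state and 3457, 3408 and 3522 at 360 min. Its 360 min arrays were above those of the dry state by 0.45 ± 0.11, which became -1.55 under spike-in scaling and lost the call after quantile normalization (0.15, adjusted p = 0.269). ATP2 went from 2929 ± 385 in the control to 2625 ± 159 at 18 h, which did not pass the test, and to 1275 ± 39.1 in the dry state, after which it stayed between group means of 1196 and 1386. ATP3 went from 3255 ± 51.1 in the control to 5498 ± 606 at 18 h, 1704 ± 254 at 90 min and 738 ± 62.7 at 360 min. Its change from dry to 360 min was -2.48 ± 0.11 (adjusted p = 5.54e-11). ATP15 and ATP16 fell at 15 min against dry (-1.03 ± 0.10 and -0.79 ± 0.14) and ended below control (-0.59 ± 0.10 and -1.87 ± 0.14). For alpha, beta and gamma, which assemble in fixed proportion, the changes from control at 360 min were 0.67 ± 0.11, -1.07 ± 0.12 and -2.14 ± 0.11.

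The membrane part and peripheral stalk hold F1 in place and, with subunits e (TIM11), g (ATP20) and k (ATP19), link ATP synthase into dimers. ATP4, the b subunit of the stalk, was the member of this group that rose from dry to 360 min, where 7 fell. It gave 803, 792 and 774 in the control, 2020, 1969.7 and 1756 at 18 h, 1534, 1681 and 1778 in the dry state, 1564, 1681 and 1382 at 45 min, 1826, 1896 and 2295 at 90 min and 2099, 1879 and 2249 at 360 min. All later arrays were above the control, and those of 90 and 360 min overlapped the 18 h arrays. The rise from 45 to 90 min (0.38 ± 0.10, adjusted p = 0.0466) lost its call when any of the 45 min arrays, or replicate 2 or 3 of 90 min, was left out (0.28 to 0.44), whereas the change at 360 min against control was 1.39 ± 0.10 (adjusted p = 3.63e-09) and turned under spike-in scaling. ATP19 gave 493, 544 and 554 in the control, 246, 171 and 277 at 18 h, 382, 239 and 344 in the dry state, 98.4, 106 and 116 at 15 min and 73.9, 59.1 and 102 at 360 min. It was lowest after wetting, with -1.22 ± 0.29 at 18 h, -1.57 ± 0.29 at 15 min against dry and -2.79 ± 0.29 at 360 min against control, and the dry arrays overlapped those of 18 h.

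TIM11 gave 2342, 2596 and 2329 at 18 h, 3399, 3012 and 3439 in the dry state and 1165, 1077 and 1126 at 360 min, so it peaked in the dry state. Its rise from 18 h (0.44 ± 0.10) was not called after median centring (0.26, adjusted p = 0.0563) or under spike-in scaling (0.42, adjusted p = 0.119). ATP20 also rose from 18 h to dry (0.46 ± 0.16), with overlapping arrays, and fell at 15 min (-1.02 ± 0.16). The call of its rise was lost in 8 of 20 alternatives, including the 3 other scalings, scan day as a fixed block and the omission of 18 h replicate 2 or dry replicate 3. ATP5, the stalk cap that binds F1, and ATP17, subunit f, fell at that step as well. ATP5 went from 586 ± 159 to 284 ± 42.3 and ATP17 went from 868 ± 142 to 426 ± 8.10, and ATP17 reached 163 ± 42.6 at 360 min. ATP7, the d subunit, rose at 18 h (0.82 ± 0.14) and was below control at 360 min (-0.46 ± 0.14), while ATP18, the i subunit, passed neither test (0.26 ± 0.11 and -0.16 ± 0.11). ATP14, the h subunit, did not pass against control at 18 h or 360 min (0.55 ± 0.24 and -0.40 ± 0.24), but its other probe set gave -1.92 at 360 min, so the size of its change depends on the probe set. The span within the group was 2.50 at 18 h and 4.19 at 360 min, in both cases from ATP19 to ATP4.

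**Figure D3:**
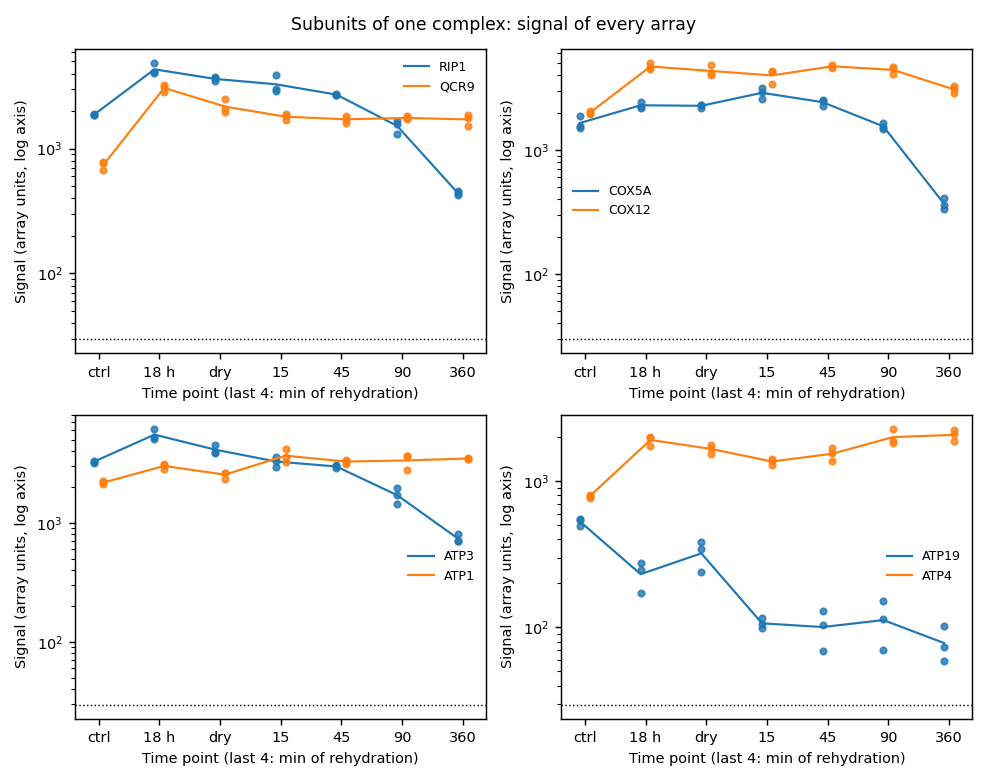
Each panel plots the signal of every array (log axis, points) and the group means (lines) for 2 subunits of one complex over the 7 time points (evenly spaced), with a dotted line at the background of 29.6. RIP1, COX5A, ATP3 and ATP19 are low at 360 min, where QCR9, COX12, ATP1 and ATP4 lie above their control arrays on the deposited scale (turned by spike-in scaling); the genes were chosen after their values were seen.

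Inh1 binds F1 and blocks ATP hydrolysis when the proton gradient is lost, and Stf1 is a related protein with a like activity. INH1 gave 236, 255 and 241 in the control, 1626, 1732 and 1694 at 18 h and 1809, 1453 and 1826 in the dry state. It gave 855, 681 and 609.6 at 15 min, 1016, 1021 and 949.5 at 45 min, 962, 811 and 922 at 90 min and 632, 827 and 737 at 360 min. The arrays of 18 h and dry lay above all others, with 2.79 ± 0.13 at 18 h (adjusted p = 1.10e-11) and -1.25 ± 0.13 at 15 min against dry. STF1 gave 1244, 1429.9 and 1449 in the control, 3884, 4600.4 and 4127 at 18 h and 4983, 3322 and 3069 in the dry state. It gave 3596, 3495 and 3989.7 at 15 min, 4519.5, 4118 and 3840 at 45 min, 3726, 3915 and 4504 at 90 min and 3255, 2568 and 3917 at 360 min. STF1 rose at 18 h (1.61 ± 0.17), its later groups overlapped, and its change at 15 min was -0.01 ± 0.17. Both were above control at 360 min (1.58 ± 0.13 and 1.22 ± 0.17), and spike-in scaling turned both.

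In 4 pairs of related genes the log2 ratio of the signals within each array was compared between groups of arrays, so that a common scaling factor cancels. Signals of different probe sets are not on one scale, so only the movement of a ratio is read. The tests were exact two-sided permutation tests of the difference in means, 8 in all, with Benjamini-Hochberg adjustment over the 8. They pool arrays of several time points and permute them as if each array were an independent replicate. Their p-values thus also reflect the spread between time points, and arrays of the same time point are not independent replicates of a pooled group. The pairs were chosen with earlier results of these data known.

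For NDE1 over NDE2 the mean ratio was 4.87 ± 0.08 in the control (SD, n = 3) and -1.56 ± 1.03 over the 18 later arrays, a difference of -6.44 with no overlap (exact p = 0.0015, the smallest the test can give, adjusted p = 0.004). It moved further toward NDE2 on rehydration, from -0.71 ± 0.63 over the 6 arrays of drying and dry to -1.99 ± 0.93 over the 12 rehydrated ones (adjusted p = 0.0093 in the exact test), and reached -3.32 ± 0.10 at 360 min. With the 360 min arrays not used this second difference was -0.84 (adjusted p = 0.023, exact test). For CYC1 over CYC7 the ratio was 2.13 ± 0.09 in the control and -1.33 ± 1.05 later (difference -3.47, no overlap, adjusted p = 0.004 in the exact test). It went back in part on rehydration (difference 1.00, adjusted p = 0.017 in the exact test; 0.98 with signals below background set to it). Much of that lay in the 3 arrays at 360 min, where CYC7 was near background and below it on 1 array: with the 360 min arrays not used the difference was 0.42 (adjusted p = 0.047, exact test).

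For COX5A over COX5B the ratio went from 1.40 ± 0.51 in the control to 4.96 ± 0.25 at 15 min and returned to 1.66 ± 0.19 at 360 min, whose arrays overlapped the control. The later arrays were 2.27 above control on average (adjusted p = 0.014 in the exact test). The rehydrated arrays did not pass the test against drying and dry (difference 0.54, adjusted p = 0.38 in the exact test). With the 360 min arrays not used, a choice made after seeing the data, the difference was 1.26 (adjusted p = 0.0039, exact test). That run leaves out the group seen to return toward control, so it cannot replace the planned test. For INH1 over STF1 the ratio was -2.49 ± 0.09 in the control, -1.23 ± 0.25 over drying and dry and -2.19 ± 0.28 over the rehydrated arrays. The fall on rehydration was -0.96 with no overlap (exact p = 0.00011, the smallest possible, adjusted p = 0.00086), and the later arrays together were above control by 0.62 (adjusted p = 0.029 in the exact test).

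**Figure D4:**
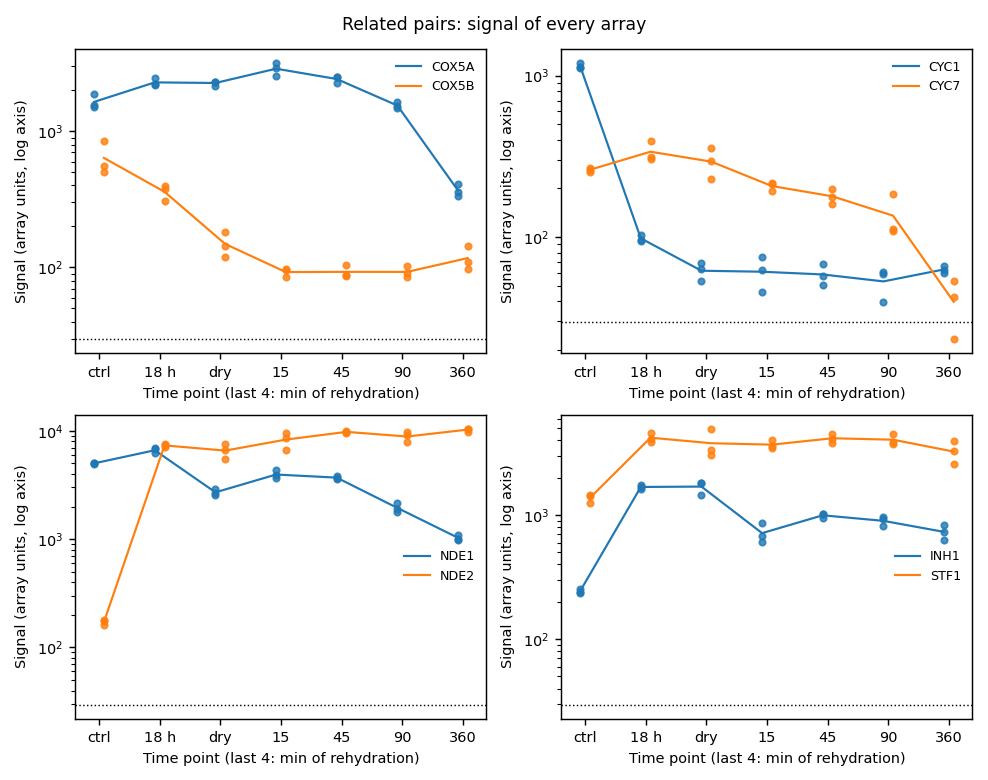
Each panel plots the signal of every array (log axis, points) and the group means (lines) of a related pair over the 7 time points (evenly spaced), with a dotted line at the background of 29.6. The lines of NDE1 and NDE2, and those of CYC1 and CYC7, cross between the control and 18 h (signals of different probe sets are not on one scale). COX5A and COX5B are farthest apart at 15 min, and INH1 moves away from STF1 after the dry state.

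Genes that build or regulate the complexes were counted from lists outside the members. Of 11 regulators 8 rose and 0 fell at 18 h against control, where 36.2% of all probe sets rose. HAP4 gave 1652, 1805 and 1625 in the control, 3234, 4111 and 3109 at 18 h, 1206, 1106 and 989 in the dry state, 2311, 1747 and 2468 at 15 min and 843, 869.6 and 813 at 360 min. Its highest arrays were those of 18 h and its lowest those of 360 min, with 1.03 ± 0.12 and -1.01 ± 0.12 against control. Its partner HAP2 rose at 18 h (1.13 ± 0.14), and HAP3 and HAP5 did not pass there (-0.16 ± 0.13 and 0.09 ± 0.14). CAT8, an activator of genes for non-fermentable carbon, rose from 240.4 ± 11.7 in the control to 1798 ± 225 at 18 h and was at 2576 ± 127 at 360 min, and ADR1, another such activator, rose by 1.77 ± 0.31 at 18 h. ROX1, a repressor of low-oxygen genes, rose from 136 ± 18.2 to 621 ± 135 at 18 h and was back at 120.1 ± 5.42 at 360 min, and its co-repressor MOT3 rose by 0.69 ± 0.16 at 18 h. The kinase gene SNF1 rose at 18 h (0.52 ± 0.12), and the glucose repressor MIG1 did not pass there (-0.42 ± 0.22) and was lower at 360 min (-1.34 ± 0.22). HAP1, the heme-responsive activator that carries the insertion in this background, rose by 0.43 ± 0.15 at 18 h with overlapping arrays and was at 5610.3 ± 818 at 360 min against 1754 ± 204 in the control. Of its 3 probe sets only the brightest was used, and that one carries the suffix that marks probes able to read other transcripts. At 360 min against dry 9 of the 11 fell and 1 rose, where 40.7% of all probe sets fell and 21.2% rose. Spike-in scaling shifts this comparison by -2.01, more than the highest change among the regulators (1.69), and so turns that rise.

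Assembly genes changed in both directions at 18 h, where 36.2% of all probe sets rose and 27.3% fell, and the shares that rose in the complex III and IV assembly lists were near that background. For complex IV 11 of 26 rose and 5 fell, with a median of 0.20. The largest changes were those of COX23 (2.75 ± 0.11), a relative of COX17, and of the COX2 chaperone COX20 (1.83 ± 0.10), which rose, and of PET117 (-2.36 ± 0.50) and the copper carrier COX17 (-1.66 ± 0.16), which fell. For complex III 3 of 8 rose and 1 fell, with a median of -0.11. The largest rises were those of CBP2 (2.37 ± 0.29, from control signals all at or below background, so at least 3.94-fold higher) and CBP4 (1.64 ± 0.19), and the assembly factor CBP3 fell (-0.77 ± 0.13). For ATP synthase 6 of 12 rose and 2 fell, with a median of 0.68. NCA3 (2.87 ± 0.21) and AEP3 (2.21 ± 0.11), which act on the mitochondrial messages of ATP synthase, rose most, and the F1 chaperones ATP11 (-0.53 ± 0.12) and ATP12 (-0.54 ± 0.23) fell. Of the genes that attach heme to cytochrome c or aid its import, CYC3, the heme lyase, rose slightly (0.24 ± 0.10) and CYC2 did not pass (-0.10 ± 0.15).

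The carriers that exchange ADP and ATP across the inner membrane changed in opposite directions. AAC1 gave 558, 608 and 541 in the control, 3843, 4590.4 and 4231 at 18 h and 9609.7, 9635 and 10215 at 360 min. AAC3, the form known from cells without oxygen, gave 183, 157 and 118 in the control, all above background, and was at or below background on all 18 later arrays, at least 5.14-fold lower at 18 h. PET9, the main form, rose by 0.45 ± 0.07 at 18 h. Of the 7 carriers and porins 5 rose and 2 fell at 18 h, where 36.2% of all probe sets rose and 27.3% fell. POR2, the minor porin, was the other fall (-0.72 ± 0.18). Of the 7 subunit genes encoded in mitochondrial DNA 5 rose at 18 h (36.2% of all probe sets) and 7 at 360 min against dry (21.2% of all probe sets), with a median of 2.39 where the nuclear members had -1.19. Spike-in scaling shifts every change of the latter comparison by -2.01, more than the smallest of these rises (1.35), but does not alter the gap between the medians. COB, COX1, ATP8 and OLI1 have several probe sets, of which only the brightest was used, and that of ATP8 is flagged as able to read other transcripts. ATP6 went from 33.5 ± 11.9 in the control, where 2 of 3 arrays were above background, to 207 ± 29.8 at 18 h and 2876 ± 829.9 at 360 min.

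**Figure D5:**
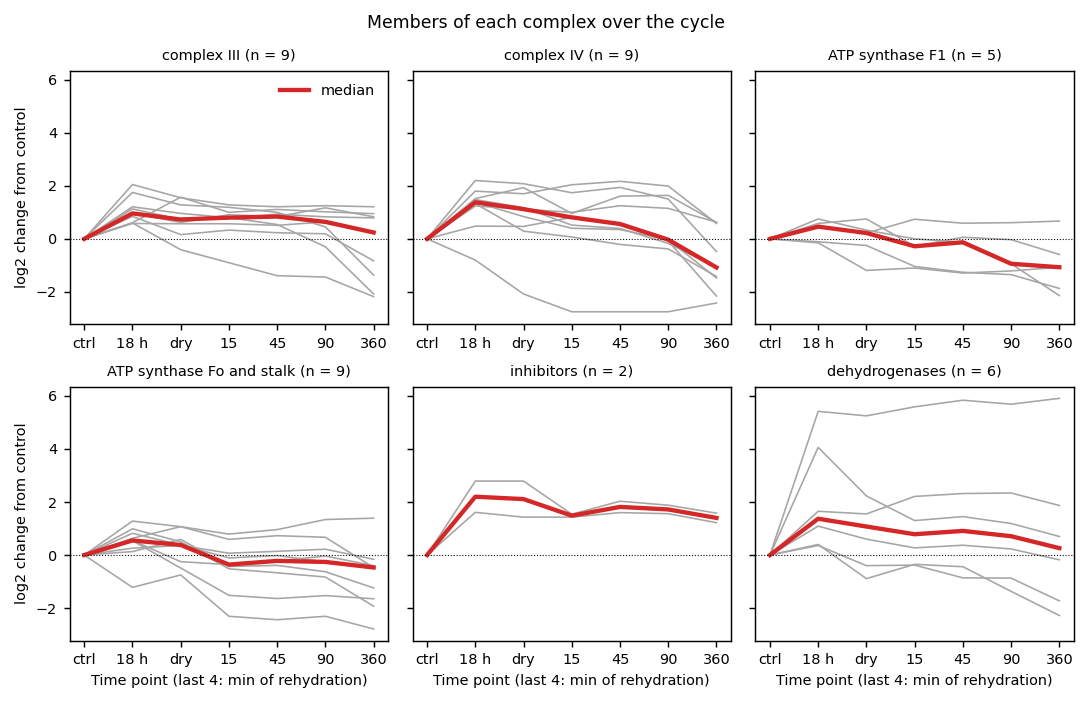
Grey lines are the members of each group (number in the panel title) and the red line their median, as the difference in mean log2 signal from the control at the 7 time points (evenly spaced). The medians of complexes III and IV are highest at 18 h, the lines of complex III lie 1.46 apart at 18 h and 3.39 at 360 min, and the inhibitors stay above 0 throughout; a common rescaling such as that on spike-ins moves all lines of a time point together, by -2.32 at 360 min.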

How the data were processed

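The study hybridised RNA of 21 samples to yeast expression arrays that measure each gene with 1 or more probe sets. The deposited table holds linear intensity values, scaled by the authors' array software, with a 2% trimmed mean of 500.2 to 500.6 on every array. Per the labels' protocols a linear mixed model was also used, and the sources used here do not give whether the deposited intensity values precede it. The intensities were raised to a floor of 2.8, the 5th percentile of positive values, and moved to the log2 scale here, since the deposited values are linear. Of 9335 probe sets 60 chip controls were left out. A model with 1 mean per time point was fitted with limma 3.58.1 (lmFit, eBayes) in R 4.3.3 over the 21 arrays, with Benjamini-Hochberg adjustment over 9275 probe sets, and was tested on simulated data. Background is the 95th percentile of 19 probe sets for mouse and bacterial genes that were not added. Permutation tests used scipy 1.17.1. The members, lists, pairs and tests were chosen with earlier results of these data known. Named with array values are the 8 genes of the pairs and, per comparison, up to 2 called rises and 2 called falls that are largest among those without overlap between arrays, and for other lists the largest changes at 18 h and all regulators; the remaining members are described by means. Alternatives covered scaling, floor, filter, eBayes trend, groups fitted, scan day, replicate block, fold minimum, probe set choice and arrays left out.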

Additional observations from a re-analysis of the deposited data

How the results depend on the processing

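The array number (3 per time point) limits precision, and signals near background have no order. Requiring a change of at least 2-fold beside the adjusted p left 20 called members at 18 h against control, 7 for dry against 18 h, 6 for 15 min against dry, 0 for 90 against 45 min, 13 for 360 against 90 min, 23 for 360 min against dry and 25 for 360 min against control. The share of all probe sets under this rule is not given here, so these counts compare members only with members. Spike-in scaling gave 11 for dry against 18 h and 42 for 360 against 90 min, the latter with a median of -0.98 over all probe sets. Fits of only the compared groups gave 15 for 15 min against dry and 0 for 90 against 45 min, where fewer arrays set the spread, and the fit within 1 scan day gave 16 for 360 against 90 min. Leaving out single arrays gave 35 to 37 calls at 18 h against control, 18 to 22 for dry against 18 h, 20 to 26 for 15 min against dry, 0 to 1 for 45 against 15 min (INH1 or QCR2), 5 to 7 for 90 against 45 min, 24 to 26 for 360 against 90 min, 32 to 35 for 360 min against dry, 36 to 39 for 360 min against control and 41 to 42 over all time points. Signs turned under spike-in scaling for GUT2 and NDE1 at 15 min against dry (-0.06 and -0.18), for ATP1 and NDE2 at 360 min against dry (-1.55 and -1.35) and for GUT2 at 360 min against control (-0.45), and after quantile normalization for NDE2 at 360 min against dry (-0.57); median centring turned 4 falls at 15 min against dry and 4 at 360 min against dry, none then called; the cause was not tested. On log2(value + 50) INH1 over STF1 differed between control and later arrays by 0.46 (adjusted p = 0.13, exact permutation test). In an alternative chosen after seeing the data, with the 360 min arrays not used, COX5A over COX5B differed by 1.26 between rehydrated and dried arrays (adjusted p = 0.0039, exact test); setting signals below background to background changed no call of the 8. Without 1 replicate number the differences in ratio were 2.01 to 2.44 and 0.45 to 0.60 for COX5A over COX5B (later against control, then rehydrated against dried), -3.50 to -3.41 and 0.93 to 1.10 for CYC1 over CYC7, -6.45 to -6.43 and -1.32 to -1.25 for NDE1 over NDE2 and 0.60 to 0.68 and -1.06 to -0.77 for INH1 over STF1. Same-numbered arrays did not deviate together (correlations -0.13 to 0.09 over 63 pairs), so no broad deviation shared by number was seen. This cannot show whether same-numbered samples shared a culture, which the labels do not say. A replicate block gave 36, 21, 24, 0, 5, 25, 34 and 38 called members in the comparisons from 18 h against control to 360 min against control, in the order of the report, and 42 over all time points. Leaving the fold minimum aside, 114 of 187 calls of members passed the threshold in every alternative run and 73 missed it in at least 1. In at least 1 of these alternatives 30 turned sign, and a turned change can still pass in the other direction. The counts of alternatives given above for GUT2, COX9 and ATP20 leave out the fold minimum too.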
